A study of Mus musculus with 2 samples.

Results

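The windows described here are distal GPS2 sites that entered the list of bound regions only at day 6 of adipogenesis but already held reads at day 0. They were taken from the authors' day 6 list of 19794 windows, each 2000 bp wide. Rows 1 to 3000 and 16795 to 19794 in deposited order were kept (6000 windows), then those that overlapped no window of the day 0 list by 1 bp (4835), and of these the ones with at least 4 day 0 reads. This left 4066 windows, 20.5% of the day 6 list, with 1997 from the first rows and 2069 from the last. The windows were chosen by presence in the day 6 list, absence from the day 0 list and number of day 0 reads. The level of each library in these windows, and the ratio between the days, are therefore given as a description and carry no test.

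GPS2 (G protein pathway suppressor 2) was mapped by ChIP-seq in the mouse preadipocyte line 3T3-L1, which turns into adipocytes after hormonal induction. The 2 groups are cells before induction (day 0) and cells 6 days into adipogenesis (day 6), with 1 anti-GPS2 library each, 4258133 and 3543507 aligned reads deep. Both come from the same cell line, and no genotype or other treatment is labelled. An input library was not analysed here, and with no replicate every interval below covers counting error only. Positions are in mm8.

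GPS2 is a subunit of the NCoR and SMRT corepressor complexes, where it sits with the histone deacetylase HDAC3 and the WD40 proteins TBL1 and TBLR1. These complexes are brought to chromatin by nuclear receptors and other factors and are known for keeping target genes low until a signal exchanges them for coactivators. Adipogenesis is driven by the C/EBP factors and the nuclear receptor PPARG, whose binding in fat cells lies largely at distal elements, far from gene starts. Such elements are often open or marked in the preadipocyte before the gene they serve is induced.

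The label "distal" rests on the order of the list, which was checked on the positions themselves. If the list is sorted by signed distance to fixed points of the genome, windows that are neighbours on a chromosome should be separated in the list by a number of rows that follows from their distance. In rows 2401 to 3000, 65 pairs of neighbouring windows gave a median of 15.4 bp of genome per row, with quartiles of 14.5 and 16. The value grew to 23.4 bp in rows 1801 to 2400, 48.3 bp in rows 1201 to 1800 and 112 bp in rows 601 to 1200. The other end mirrored it, with 19.9, 31.0, 56.7 and 114 bp per row from row 16795 outwards. The quartiles widened outwards, to 87.6 and 161 bp in rows 601 to 1200. In the 600 rows at either tip the medians were 496 and 529 bp, with quartiles of 291 and 1011 and of 308 and 1115, so the spacing is only loosely fixed there. Leaving the tips aside, rows 601 to 3000 span about 119 kb of distance in the list's order and the mirror rows 133 kb. Of 893 pairs of windows 2 to 10 kb apart with at least 1 window in the outer rows, 674 (75.5%) lay in the same end of the list, 21 at opposite ends, and 198 had a window in the remaining rows. That the fixed points are gene starts was not tested, because no mm8 annotation was used here.

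**Figure D1:**
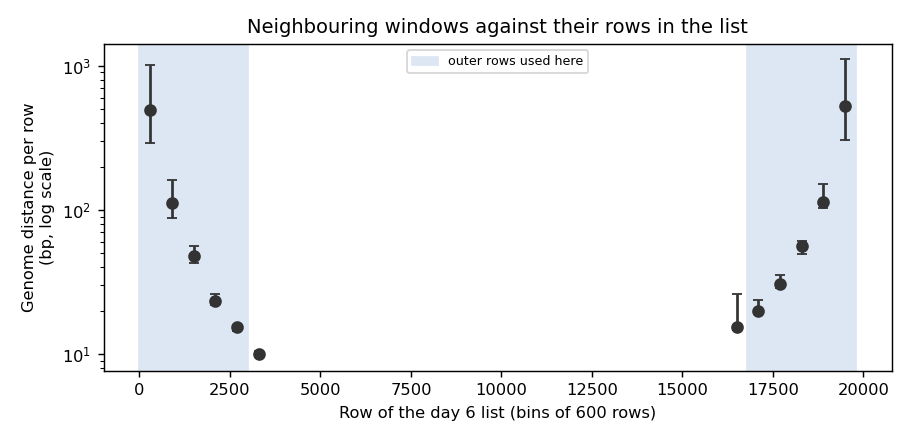
Base pairs of genome per row of the day 6 list (log axis) against the row, in bins of 600 rows. Points are medians and bars quartiles over pairs of neighbouring windows, and the shaded rows are those the distal windows came from. The value grows from 15.4 bp per row near row 3000 to 112 bp in rows 601 to 1200, and in the same way at the other end.

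The day 0 signal in these windows was local and lay at the place where the day 6 signal stood. Of the 37892 day 0 reads in the 4066 windows, 45.3% (exact binomial 95% interval 44.8 to 45.8) fell in the central 500 bp, which make up 25% of the window. The rule counted the day 0 reads of a window without regard to where in the window they lay. In 1212810 tiles of 2 kb placed side by side outside all windows the central 500 bp held 25% of the day 0 reads, and in the 422149 tiles with at least 4 day 0 reads they held 25.1%. In intervals 2 to 4 kb away from the same windows the share was 25.1% (24.6 to 25.6). Tiles and intervals were placed without regard to where reads lay. A share near 25% follows from that placement, so these values restate the length share and are no separate control. Day 6 reads, which the authors used to place the windows, had 64.3% in the central 500 bp (63.9 to 64.7).

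The share hardly depended on how many day 0 reads a window held, up to 11 reads. It was 48.2% (45.9 to 50.5) in the 465 windows with 4 reads, 48.0% (46.1 to 49.9) in the 530 with 5, 50.2% (48.9 to 51.4) in the 979 with 6 or 7 and 48.7% (47.8 to 49.6) in the 1308 with 8 to 11. It was lower in the 517 windows with 12 to 15 reads, at 44.3% (43.1 to 45.5), and in the 267 with 16 or more, at 35.8% (34.8 to 36.9). The rule favours this fall. Windows listed at day 0, all with at least 7 day 0 reads in their densest 200 bp, were left out. Windows with many day 0 reads that stayed therefore tend to have them spread. The day 0 flanks of these 517 and 267 windows held 4.54 and 14.9 reads per 2 kb. The 366 distal windows with 3 day 0 reads, just under the threshold, had 48.5% (45.5 to 51.5). So the lowest permitted count did not mark a change in where day 0 reads lay.

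Strand gave a further view of the same signal. In ChIP-seq the plus-strand 5' ends of bound fragments lie to the left of the bound position and the minus-strand ends to the right. Within 200 bp of the window centres, 5244 day 0 plus-strand ends lay to the left and 2810 to the right, a ratio of 1.87 (1.78 to 1.95). Of the minus-strand ends, 2157 lay to the left and 4116 to the right, a ratio of 0.524 (0.497 to 0.552). At day 6 the same ratios were 5.41 and 0.179. The day 0 reads thus had the strand order of bound fragments around the centre, with a smaller contrast than the day 6 reads that placed the centre.

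Day 0 reads stood 4.49 times above the level at 2 to 3 kb within 100 bp of the centre, 2.50 times from 100 to 250 bp, 1.61 times from 250 to 500 bp and 1.18 times (1.16 to 1.21) from 500 to 1000 bp. From 1000 to 2000 bp the value was 1.00 (0.984 to 1.02), so the day 0 signal ended within the window. The minimum of 4 reads raises the day 0 level of the windows it keeps. All 4835 distal windows without a day 0 counterpart, taken without that minimum, gave 4.16 times within 100 bp and 45.5% of day 0 reads in the central 500 bp. Absence from the day 0 list was required of both sets and lowers the day 0 level.

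**Figure D2:**
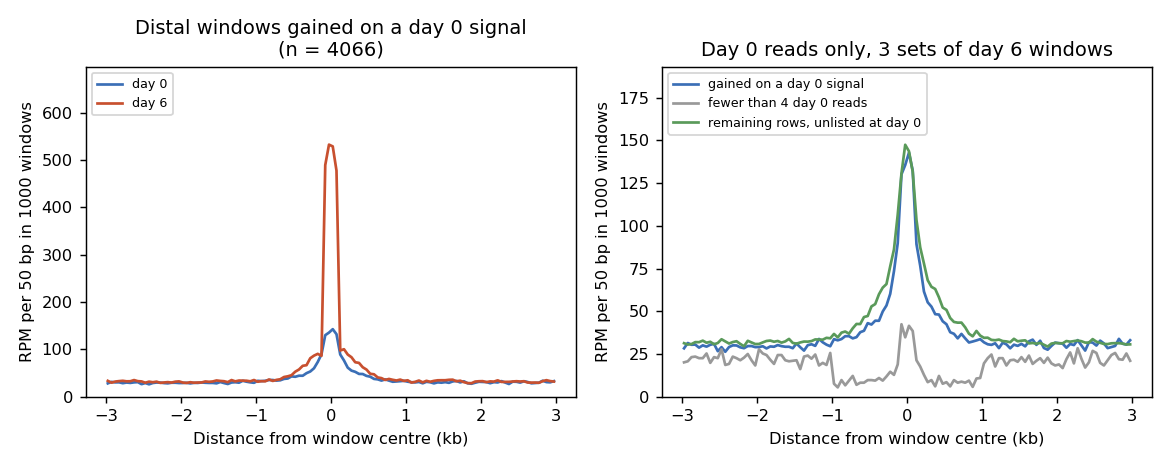
Read level per 50 bp in 1000 windows, in reads per 1000000 reads of the library (RPM), against the distance from the window centre, after moving each read to the middle of its fragment. Left, the 4066 distal windows with day 0 and day 6 reads; right, day 0 reads in these windows, in the 769 distal windows with fewer than 4 day 0 reads and in the 8515 unlisted windows of the remaining rows. The day 0 curve peaks at the centre, as the day 6 curve does, and the dip of the grey curve within 1 kb is set by its own rule.

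In a typical window the signal was a handful of reads. At day 0 a window held a median of 8 reads (quartiles 6 and 11, 5th and 95th percentiles 4 and 17, highest 418), and at day 6 a median of 12 (10 and 16, 7 and 24, highest 552). In RPM the medians were 1.88 and 3.39. A background tile held 3.07 day 0 reads and 2.43 day 6 reads on average, and 34.8% of tiles reached 4 day 0 reads. Among intervals 2 to 4 kb from the windows 49.8% reached 4, and among the distal windows without a day 0 counterpart 84.1% did. A window at the minimum of 4 reads is therefore within the reach of local background, and only the sum over windows shows the central signal.

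Summed over the 4064 windows with at least 2 kb of free sequence within 5 kb on both sides, the read density was 1.97 times that of the flanks at day 0 (1.95 to 2.0) and 3.52 times at day 6 (3.48 to 3.56). The flanks held 4.72 and 4.04 reads per 2 kb. At day 0, 1755 of the 4066 windows (43.2%) had at least 2 times the density of their own flank or of the genome, whichever was higher, while over all day 6 windows 59.0% did. At day 6 it was 3558 windows (87.5%), against 88.8% of all day 6 windows, a share near the background. The day 0 figure follows in part from the rule, which excluded every window listed at day 0.

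The lists themselves set what "gained" means here. Every one of the 7652 windows of the day 0 list held at least 7 day 0 reads in its densest 200 bp, and every one of the 19794 windows of the day 6 list held at least 6 day 6 reads in its densest 200 bp. Of the day 6 windows, 5393 held exactly 6. In RPM, 7 reads at day 0 are 1.64 and 6 reads at day 6 are 1.69. Many of the distal gained windows came close to the day 0 level without reaching it: 1094 (26.9%) held 5 or 6 day 0 reads in their densest 200 bp, 1969 (48.4%) held 3 or 4, and 896 (22.0%) held 1 or 2. The remaining 107 windows (2.63%) held 7 or more and were still not in the day 0 list. Of these 107, 12 lay in a segment of chromosome 10 with very dense background, described below. The distal gained windows came this close less often than the unlisted windows of the remaining rows. Of the latter 21.1% held 5 and 19.4% held 6, against 16.5% and 10.4% of the distal ones. At day 6, 1586 of the 4066 windows (39.0%) held exactly the lowest listed number of 6.

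**Figure D3:**
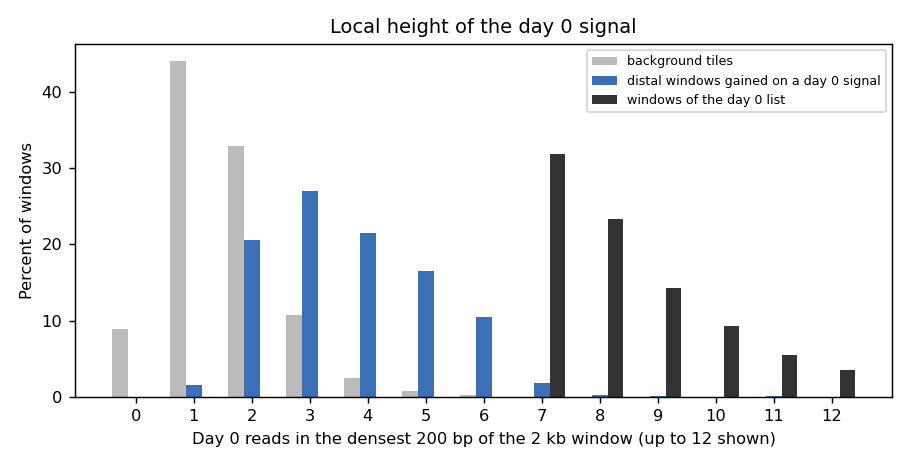
Percent of windows (y axis) by the number of day 0 reads in the densest 200 bp (x axis, up to 12 shown), for every 20th background tile, the distal gained windows and the day 0 list. The day 0 list starts at 7 reads, and 26.9% of the distal gained windows sit at 5 or 6.

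The densest 200 bp of day 0 was compared with that of day 6. In the 4005 windows (98.5%) with at least 2 day 0 reads in the densest 200 bp, the median distance between the densest stretches of the 2 libraries was 141 bp. It was at most 100 bp in 41.7% and over 500 bp in 19.2%. In the 1201 windows with at least 5 day 0 reads in the densest 200 bp the median was 101 bp. It was at most 100 bp in 595 of these windows (49.5%), at most 200 bp in 813 (67.7%) and over 500 bp in 153 (12.7%). Distal windows that were in both lists had these stretches closer together, with a median of 56.0 bp over 1124 windows at the same minimum. For the unlisted windows of the remaining rows it was 139.5 bp over 3731 windows. The same minimum does not match the groups in day 0 reads. Of the 1201 gained windows, 1094 held 5 or 6 reads in the densest 200 bp. The median over all distal windows of both lists was 10 reads, so the distances are not like for like.

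The level at day 6 was higher than at day 0 in most windows. The summed ratio of day 6 to day 0, in RPM, was 1.83 (1.81 to 1.86), with 57837 day 6 reads against 37892 day 0 reads. By the size rule (2-fold or more in either direction, and 10 reads or more in the library with the greater count), 1631 of the 4066 windows (40.1%) were called higher, 1 lower and 2434 neither. Among all windows of the day 6 list 35.4% were called higher and 0.136% lower. The share of higher calls stood beside that background, and the rule, which took windows listed at day 6 and not at day 0, favours higher calls. After subtraction of the flank level the summed ratio was 2.77. Scaling by the median ratio of the day 6 windows that overlap the day 0 list (1.35, a shift of every ratio by -0.43 on the log2 scale) left 1.36 for the unsubtracted ratio, with 754 windows higher and 11 lower, and 17.1% of all day 6 windows higher. In plain read counts, 3479 windows held more reads at day 6, 221 the same and 366 fewer, although the day 6 library is 0.832 times as deep.

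The ratio between the days was concentrated in the central 200 bp. Within 100 bp of the centre it was 3.75 (3.67 to 3.84), with 9365 day 0 and 29236 day 6 reads. The choice of the windows bears most on that stretch, since listed day 6 windows held at least 6 day 6 reads in their densest 200 bp and nearly all of these windows held fewer than 7 day 0 reads there. Outside it the ratio was much smaller: 1.22 (1.18 to 1.26) from 100 to 250 bp, 1.39 (1.35 to 1.43) from 250 to 500 bp and 1.07 (1.04 to 1.09) from 500 to 1000 bp. Beyond the windows it was 1.08 (1.06 to 1.10) at 1000 to 2000 bp and 1.06 (1.04 to 1.08) at 2000 to 3000 bp. The rings from 100 to 500 bp were above this outer level and the ring from 500 to 1000 bp was not. Relative to the level at 2 to 3 kb, the ring from 250 to 500 bp stood at 1.61 times at day 0 and 2.10 times at day 6. The minimum of 4 day 0 reads counts the whole window, so it lowers the ratio in all of its rings. All 4835 distal windows without a day 0 counterpart, taken without that minimum, gave 1.13 (1.10 to 1.16) from 500 to 1000 bp. Their values were 1.08 (1.064 to 1.104) at 1000 to 2000 bp and 1.07 (1.05 to 1.09) at 2000 to 3000 bp. Without the minimum the ring from 500 to 1000 bp was thus above the level at 2000 to 3000 bp. Its interval, from 1.102, overlapped that at 1000 to 2000 bp. These windows were chosen by absence from the day 0 list, so the comparison carries no test.

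Distal windows of both lists showed a flatter pattern. Their ratio was 1.5 (1.47 to 1.54) within 100 bp, 1.12 (1.09 to 1.16) from 100 to 250 bp and 1.34 (1.30 to 1.39) from 250 to 500 bp. The difference of the central values carries no test, because the gained windows had to be absent from the day 0 list and these had to overlap it. In the ring from 250 to 500 bp the intervals of the gained windows and of the windows of both lists overlapped. This overlap depended on the minimum of day 0 reads. All 4835 distal windows without a day 0 counterpart, taken without that minimum, gave 1.44 (1.40 to 1.48) there, above the interval of the windows of both lists. The unlisted windows of the remaining rows had 1.60 (1.58 to 1.63) in the ring from 250 to 500 bp, against 1.195 (1.18 to 1.21) at 2 to 3 kb.

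More day 0 reads went with more day 6 reads. Windows with 4 day 0 reads held a median of 10 day 6 reads (quartiles 8 and 12), those with 8 to 11 held 13 (10 and 16), those with 12 to 15 held 16 (13 and 19) and those with 16 or more held 22 (18 and 29). The summed ratio was 3.19 in the windows with 4 day 0 reads, 2.14 with 6 or 7, 1.54 with 12 to 15 and 1.33 with 16 or more. A ratio whose denominator sorts the windows has to fall in this way. The local background rose along the same order. With 4, 8 to 11, 12 to 15 and 16 or more day 0 reads, the day 6 flanks held 3.23, 3.56, 3.87 and 12.1 reads per 2 kb. The day 6 fold over the flank was 3.29, 3.87, 4.34 and 2.78. Without the dense chromosome 10 segment described below, the last group had 6.44 reads and a fold of 3.82. The part of the background in the day 6 counts was not tested. Windows with 3 day 0 reads, just outside the rule, held a median of 10 day 6 reads, the same as those with 4.

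**Figure D4:**
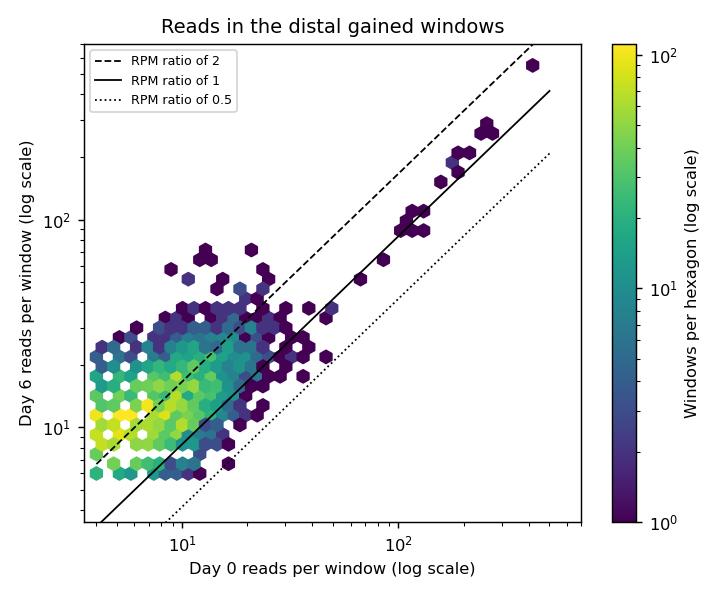
Day 6 reads against day 0 reads per window for the 4066 distal gained windows (both axes log), with lines for RPM ratios of 2, 1 and 0.5. Most windows lie between 4 and 17 day 0 reads and above the line of equal RPM, and the sparse tail at the upper right holds the windows of dense background.

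The 2 ends of the list gave like values. In the first rows the summed ratio was 1.80 (1.77 to 1.84), the fold over the flank 1.94 at day 0 and 3.41 at day 6, and the central share of day 0 reads 44.3% (43.6 to 45). In the last rows these were 1.87 (1.83 to 1.90), 2.0, 3.63 and 46.4% (45.7 to 47.1). The intervals of the central shares do not overlap. Without the dense chromosome 10 segment the ratios were 1.86 and 1.88 and the shares 45.3% (44.6 to 46.1) and 46.4% (45.6 to 47.1), and both pairs of intervals overlapped.

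The summed fold over the flank was higher for windows farther out in the list. In the outermost 1000 rows of the first end the fold over the flank was 2.06 at day 0 and 3.66 at day 6, and in rows 2001 to 3000 it was 1.88 and 3.18. At the other end the same bins gave 2.38 and 4.67 against 1.79 and 3.07. The median window held 8 day 0 and 12 day 6 reads in all 4 of these bins, so the fold rose while the typical count did not. Windows of the dense chromosome 10 segment were kept in these bins. The part of that segment and of the flank background in this order was not tested. Just inside the border, the innermost 100 rows of either end held 67 and 63 windows that pass the rule, with medians of 8 and 8 day 0 reads and 12 and 13 day 6 reads. Just outside it, the next 100 rows held 78 and 62 such windows, with 8 and 6 day 0 reads and 12 and 12 day 6 reads.

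Most distal gained windows stood alone. The median distance to the nearest day 0 window was 91.5 kb and to the nearest other day 6 window 37.6 kb. A day 0 window lay within 10 kb of 290 windows (7.13%) and within 50 kb of 1374 (33.8%). The distal windows with fewer than 4 day 0 reads had a day 0 window within 10 kb in 2.99% of cases, and the unlisted windows of the remaining rows in 18.3%. Windows near the day 0 list sat in denser background: the flanks held 9.11 day 0 reads per 2 kb under 10 kb from a day 0 window, 6.35 from 10 to 50 kb and 3.71 beyond 50 kb. The fold over the flank at day 0 went the other way, at 1.51, 1.69 and 2.23, and so did the central share of day 0 reads, at 39.8% (38.3 to 41.4), 42.6% (41.7 to 43.5) and 47.8% (47.1 to 48.4). Without the dense chromosome 10 segment the flanks held 7.05, 5.15 and 3.71 reads and the central shares were 39.7%, 43.7% and 47.8%. The median window held 10, 8 and 7 day 0 reads from the nearest to the farthest group. The fold and the central share were thus highest far from any day 0 site, where the flanks were least dense and the median count lowest. The part of the denser background in this order was not tested.

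Some windows came in runs. Joining windows whose centres lay within 10 kb gave 286 runs of 2 or more with 641 windows (15.8%), and 3425 windows stood alone. Of the 4066 windows, 137 overlapped another day 6 window and so share reads with it. The longest run lay on chromosome 8 (123180375 to 123213659) and held 7 gained windows over 33.3 kb, with 1 day 0 window among them. Its windows held 5 to 17 reads at day 0 and 10 to 24 at day 6, 63 and 112 in sum, a ratio of 2.14 (1.56 to 2.96). A run of 6 on chromosome 2 (167430019 to 167452951) held 65 and 98 reads (ratio 1.81, 1.31 to 2.52), and another of 6 on chromosome 6 (114814138 to 114835434) held 51 and 116 (ratio 2.73, 1.95 to 3.88). No day 0 window lay inside either of these. In the chromosome 6 run 5 of the 6 windows were called higher. These runs were picked for their length after the positions were seen, and their flanks, with 6.94 to 9.74 day 0 reads per 2 kb, were denser than the 4.72 over all distal gained windows.

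A run of 4 on chromosome 5 (14988602 to 14997816) did not share this pattern. It held 90 day 0 and 75 day 6 reads, with a ratio of 1.00 (0.727 to 1.38), and none of its windows was called higher. Its day 0 flanks held 16.3 reads per 2 kb.

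Chromosomes 8, 15 and 17 were richest in distal gained windows, with 3.01, 2.60 and 2.37 per Mb, and chromosome X was poorest among the autosomes and X, with 0.646 per Mb. The share of distal windows on a chromosome that passed the rule varied less, from 62.6% on chromosome 9 to 72.0% on chromosome 17 (chromosome Y, with 2 distal windows, left aside). The summed ratio lay between 1.71 and 2.04 on every autosome and on X except chromosome 10. There it was 1.53 (1.47 to 1.59), and 1.86 (1.75 to 1.97) without the dense segment.

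That segment, chromosome 10 from 116600001 to 117200000, is the longest run on the chromosome of 100 kb bins with at least 10 times the day 0 read density of the genome. It held 13 of the distal gained windows. They held 12 to 418 reads at day 0 and 16 to 552 at day 6, which is 6.73% and 4.68% of all reads in the gained windows. Their summed ratio was 1.28 (1.21 to 1.35), their fold over the flank only 1.33 and 1.70, and none was called higher or lower. The window with the most reads of all, on chromosome 10 (116985999 to 116987998), stood above its flank at both days: 418 and 552 reads, 2.46 and 3.96 times its flank, a ratio of 1.59 (1.39 to 1.81). The next in day 0 reads, from 117070174 to 117072173, held 262 and 271 reads at 1.34 and 1.68 times its flank. The one from 117167855 to 117169854 held 252 and 299 reads at 1.03 and 1.30 times its flank. Of its day 0 reads, 127 lay in the central 500 bp and 91 in the densest 200 bp, against 130 and 64 in the window with 418 reads. All windows that rank in the top 6 by reads of either day lay in this segment. Without it the summed ratio was 1.87 (1.85 to 1.90) and the day 0 fold over the flank 2.03.

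Outside that segment (chosen after the values were seen) the highest day 0 counts were 115, 109, 109 and 98 reads. The first, on chromosome 11 (3056872 to 3058871), held 93 day 6 reads at 1.16 and 1.17 times its flank. The others lay on chromosome 8 and held 107, 96 and 91 day 6 reads, with ratios from 1.06 to 1.18 whose intervals all include 1. These windows were picked by their day 0 counts, the denominator of the ratio.

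The 6 largest ratios among the 522 windows with at least 20 reads in either library started from 4 to 13 day 0 reads. On chromosome 3 (51870808 to 51872807) the window held 9 day 0 and 59 day 6 reads (ratio 7.88, 3.88 to 18.1) and stood 1.88 and 19.7 times above its flank. On chromosome 8 (80343883 to 80345882) these were 13 and 72 reads (ratio 6.66, 3.66 to 13.1) and 2.32 and 18.0 times the flank. The other 4 of the 6 largest ratios each started from 4 day 0 reads, the lowest the rule permits. They reached 25 reads on chromosome 12 (99673068 to 99675067), 24 on chromosome 6 (114814138 to 114816137), 23 on chromosome 17 (8508522 to 8510521) and 23 on chromosome 6 (16938653 to 16940652), with ratios between 6.91 and 7.51. All 4 stood at 1.24 times the genome level at day 0, so their day 0 reads cannot be told from background one by one. These ratios are the extremes of 522 windows, and their intervals make no allowance for that choice.

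The day 0 reads of these sites were compared with the positions of the later peak. On chromosome 3 the day 0 plus-strand ends nearest the centre began 9, 156 and 299 bp to its right and the minus-strand ends 41, 113 and 161 bp to its right. The day 6 ends of that window spread from 323 bp on the left to 599 bp on the right, apart from 1 plus-strand end 784 bp to the left. These 6 day 0 reads and a minus-strand read that began 449 bp to the right lay within the stretch filled at day 6. The other 2 of the 9 began 886 bp to the left and 653 bp to the right. In the chromosome 8 window 7 of 13 day 0 reads and 38 of 72 day 6 reads lay in the central 500 bp.

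The windows with the highest day 0 fold over the flank, among the 1329 with at least 10 day 0 reads and free flanks, had their day 0 reads spread over the window. The rule favours this, since windows listed at day 0 were left out and every one of those held at least 7 reads in its densest 200 bp. It does not force it, because 107 of the gained windows held 7 or more there. On chromosome 2 (52518616 to 52520615) 38 day 0 reads stood 9.69 times above the background, but only 8 lay in the central 500 bp and 7 in the densest 200 bp. At day 6 the window held 28 reads, 15 of them central, a ratio of 0.885 (0.523 to 1.48). On chromosome 17 (63548480 to 63550479) 27 and 33 reads stood 8.36 and 12.3 times above background, with 8 and 15 central. On chromosome 9 (98059597 to 98061596) 25 and 24 reads stood 7.74 and 8.94 times above, with 7 and 11 central. On chromosome 6 (3802899 to 3804898) 24 and 47 reads stood 7.43 and 17.5 times above, a ratio of 2.35 (1.41 to 4.02), with 9 and 15 central. No more than 7 of the day 0 reads of any of these 4 windows fell in a stretch of 200 bp.

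The smallest ratios were taken over windows with at least 20 reads in either library, so a low ratio comes with at least 20 day 0 reads. Of the 6 smallest, 3 lay on chromosome 8 between 19874733 and 20274942: 44 and 22 reads, 36 and 17 reads, and 37 and 23 reads, with ratios of 0.601 (0.343 to 1.02), 0.567 (0.299 to 1.04) and 0.747 (0.424 to 1.29). They lie in a stretch of chromosome 8 from 19700001 to 20500000, bounded by 100 kb bins with at least 3 times the genome's day 0 read density and picked after these values were seen. It held 12 distal gained windows with 18 to 109 day 0 reads. Their ratio was 0.966 (0.848 to 1.10), against 1.83 (1.75 to 1.91) in the other 385 gained windows of the chromosome. The day 0 flanks there held 23.7 reads per 2 kb, against 5.32 for the rest of the chromosome, and the central share of day 0 reads was 29.7%. None of the 12 was called higher. The other 3 of the 6 smallest ratios, on chromosomes 2, 6 and 11, held 20 to 23 day 0 and 12 or 13 day 6 reads, with intervals that include 1. The one on chromosome 2 overlaps the window with the highest day 0 fold and shares reads with it. The only distal gained window called lower lay on chromosome 2 (136369168 to 136371167), with 17 and 7 reads, a ratio of 0.495 (0.173 to 1.26).

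The distal windows with fewer than 4 day 0 reads, the nearest group on the other side of the threshold, numbered 769. They held 1712 day 0 and 7712 day 6 reads, and their day 0 density was 0.617 times that of their flanks, which the rule fixes. Even so, 48.9% (46.5 to 51.3) of these few day 0 reads lay in the central 500 bp. Their day 6 fold over the flank was 3.20 (3.11 to 3.29), against 3.52 in the gained windows with a day 0 signal. The day 6 flanks of these groups held 3.13 and 4.04 reads per 2 kb. Next to the threshold, distal windows with 3 day 0 reads had a day 6 fold of 3.19 (3.06 to 3.32). Those with 4 had 3.29 (3.17 to 3.41). The rule splits the groups by day 0 reads, so the difference carries no test. The unlisted windows of the remaining rows, 8515 with at least 4 day 0 reads, had a day 6 fold of 3.83 and a central share of day 0 reads of 43.4% (43.1 to 43.8), below the 45.3% of the distal windows. Their median ratio was 1.92, the same as that of the distal gained windows.

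As a check on the libraries, reads with the same start and strand in both were counted. In the distal gained windows 882 day 0 reads shared a start and strand with a day 6 read, while shifts of 1 bp to either side gave 798 and 785. Over the whole genome the counts were 43270, 40628 and 40491. The excess over the mean of the shifted counts was 11.4% in the windows and 6.68% over the genome, and the difference between these was not tested.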

How the data were processed

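ChIP-seq with anti-GPS2 antibodies was analysed for 1 day 0 and 1 day 6 library. Bowtie, HOMER and the mm8 build appear in the submitters' processing notes. Versions, settings and roles: not given in the sources used here. The authors deposited aligned reads (36 bp intervals with strand, at most 1 per start and strand, and a score column with a single constant) and a list of window positions for each library, with no height or p-value. Read 5' ends were moved 95 bp (day 0) or 85 bp (day 6) towards the fragment centre and counted in each window, with Python 3.11.15, numpy 2.4.6 and scipy 1.17.1. RPM refers to all reads of a library. Fold over the flank used reads within 5 kb outside all windows of both lists. Ratios carry exact conditional binomial and shares exact Clopper-Pearson 95% intervals, which cover counting error only. A count of 0 allows up to 3 reads.

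The size rule and the central share were tested on simulated data. The windows, groups and comparisons were chosen with earlier results of these data known. The windows named were the 6 with the most reads of either day, the 6 largest and 6 smallest ratios at 20 or more reads, and the 4 with the highest day 0 fold at 10 or more day 0 reads. No test between days was possible with 1 library each. Alternatives changed the shift, the row and read thresholds, the overlap rule, the scaling, the counted stretch and the flank. The mm8 sequence and annotation were not used here, so motifs and gene names are not reported.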

Additional observations from a re-analysis of the deposited data

How the results depend on the processing

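Every summed ratio, fold over the flank and central share kept its side of 1, or of the 25% of the window length, under each alternative run. With at least 6 day 0 reads the ratio was 1.69, the folds at day 0 and day 6 2.16 and 3.56, the higher calls 1048 and the central day 6 share 62.2%. With at least 8 reads, 2092 windows gave 1.59, folds of 2.33 and 3.63, 501 higher calls and central shares of 43.7% and 59.2%. With a day 0 fold of at least 2, 1755 windows gave 1.65, 3.15 and 4.88, 443 higher calls and a central day 6 share of 60.4%. The outer 1500 rows gave 1967 windows, folds of 2.10 and 3.87, 748 higher and 0 lower calls and shares of 46.2% and 65.3%. The outer 4500 rows gave 6200 windows, 1.88 and 3.27, 2622 higher calls, 44.6% and 63.5%. The first rows alone gave 1997 windows, a ratio of 1.80, folds of 1.94 and 3.41, 796 higher calls, 44.3% and 63.4%. The last rows gave 2069 windows, 1.87, 2.0 and 3.63, 835 higher and 0 lower calls, 46.4% and 65.2%. Counts change here in part because fewer or more windows enter, but the share called higher changed too. It was 40.1% in the main set, 34.1% with at least 6 day 0 reads and 23.9% with at least 8. A day 0 fold of at least 2 gave 25.2%, and the outer 4500 rows gave 42.3%. Over all day 6 windows, with no such minimum, it was 35.4%. A minimum of day 0 reads raises the denominator of the ratio, so the fall carries no test.

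Unshifted reads gave central shares of 44.3% and 63.9%. Requiring no day 0 window within 5 kb gave folds of 2.0 and 3.61, and leaving out windows that overlap another a day 6 fold of 3.57. Without the dense chromosome 10 segment the ratio was 1.87, the folds 2.03 and 3.70 and the shares 45.9% and 65.1%. Scaling by reads outside the windows gave 1.92 with 0 lower calls, and scaling by windows of both lists 1.36 with 754 higher and 11 lower calls, against 1631 and 1. Higher calls made up 42.1% and 18.5% of the gained windows under these scalings, and 37.8% and 17.1% of all day 6 windows. The central 1000 bp gave 2.20, and the central 500 bp 2.60 with 1033 higher and 0 lower calls. A minimum of 20 reads left 317 higher and 0 lower calls, and a ratio of 1.5 gave 9 lower calls. For the counted stretch, this minimum and this ratio, the share of all day 6 windows called was not counted. Those calls therefore have no background beside them. Flanks of 10 kb gave folds of 2.02 and 3.57 and a flank-subtracted ratio of 2.71, and flank density alone 2.70. A day 0 window lay within 10 kb of 7.13% and within 50 kb of 33.8% of the windows, against 3.05% within 5 kb. Where the construction does not give the cause, the cause was not tested.

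Depth limits single windows: at the minimum of 4 reads a day 0 signal is not detectable one by one. No paired analysis was possible because each day has 1 library. The planned motif search was not run.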
